A study of Mus musculus with 4 samples.

Results

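The genes described here are 9 that encode enzymes of mitochondrial fatty acid beta-oxidation: Cpt1a, Cpt1b, Cpt2, Acadm, Acadl, Acadvl, Hadha, Hadhb and Etfdh. They were taken by name, as every array probe whose transcript accession belongs to one of them. This gave 12 probes of the 55681 on the array, for 9 of the 20972 genes that could be named. RNA came from 3T3-L1 cells, a mouse fibroblast line that can be turned into fat cells. There were 4 groups with 1 Agilent Cy3 array each, described by the labels as preadipocytes: lamp2a- cells at day 2, control cells at day 2, lamp2a- cells at day 0 and control cells at day 0. The lamp2a- cells are called knockdown cells here, after the design text, which says that lamp2a was knocked down. LAMP2A is the lysosomal receptor of chaperone-mediated autophagy, which takes single proteins into lysosomes. All cells grew to confluence (day 0) in medium with 10% serum. The day 2 cells then had medium with hormones: insulin at 160 nM, dexamethasone at 250 nM, and the phosphodiesterase inhibitor isobutylmethylxanthine at 0.5 mM. The sources used here do not give the means of knockdown, and no day 2 culture without the hormones was among the samples, so the hormones and the time cannot be told apart.

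Beta-oxidation shortens fatty acids by a pair of carbons per round inside mitochondria. Carnitine palmitoyltransferase 1, on the outer membrane, links long-chain fatty acids to carnitine and is the step that malonyl-CoA, an intermediate of fatty acid synthesis, inhibits. Carnitine palmitoyltransferase 2 returns them to coenzyme A inside. Acyl-CoA dehydrogenases for very long, long and medium chains then make the first double bond, the trifunctional protein hydrates, oxidises and cleaves the long chains, and electrons from the dehydrogenases reach the respiratory chain through the electron transfer flavoprotein and its oxidoreductase. PPAR and ERR nuclear receptors with the coactivator PGC-1alpha drive many of these genes in tissues that burn fat, and white fat cells express most of them while they mainly store lipid.

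Among the 9 genes, the medium-chain dehydrogenase gene Acadm had the widest range over the arrays. It was 2.13-fold higher at day 2 than at day 0 in knockdown cells and 3.68-fold higher in control cells. Acadvl, for very long chains, was 2.02-fold higher at day 2 in knockdown cells and 1.57-fold higher in control cells. No other of the 9 differed by 2-fold, the size at which a difference is called here, in any comparison, and none did so between knockdown and control cells at either day. Of all genes compared, 14.1% passed 2-fold in the knockdown time course, 28.2% in the control time course, 7.02% between knockdown and control cells at day 2 and 22.6% at day 0. In these bulk RNA samples, a change in the share of cells that express a gene and a change in RNA per cell cannot be told apart.

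With 1 array per group there was no replicate spread to test a difference against, so no p-value is given, and a gene is called higher or lower at a fixed 2-fold difference. The level of a gene is the log2 of its processed signal minus the 75th percentile of its array. The feature extraction software gave each signal of the 12 probes an error of 10.0% to 11.4%. At the probe that stands for each gene this gives the log2 ratio of 2 arrays a software error of 0.20 to 0.21. It is the software's estimate and not a spread measured over spots. For the main Cpt1a probe, printed 10 times, it was 10.0%, while the SD over spots was 2.96% to 4.73% of the mean signal. Repeat spots of bright probes had a median SD of the log2 ratio of 0.035 to 0.073. All 12 probes were well above background on all 4 arrays, and none of their spots was an outlier or saturated. For 8 genes the mean level was above the 95th percentile of olfactory receptor genes, taken as genes silent in fibroblasts, as it was for 11372 genes called bright below. Cpt1b was the exception and is a dim gene. Because levels of different probes cannot be set against each other, genes are compared by their ratios. The summed marker levels given below do add levels of different probes, so bright probes weigh most in them.

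The arrays set some limits on these ratios. Between 67.4% and 88.6% of spots were well above background, the fewest on the control day 0 array, which was also on another slide than the other 3. Comparisons with that array therefore cross slides, and a difference of slide cannot be told apart from one of group there. Over all genes compared, the median log2 ratio was 0.19 for day 2 against day 0 in control cells and 0.12 for knockdown against control at day 0, and both were 0 after quantile normalization. Over bright genes these medians were 0.03 and -0.02. Of 2 Lamp2 probes, one had signals of 3575 in knockdown and 14116 in control cells at day 2, and of 7931 and 31300 in knockdown and control cells at day 0. The other differed by log2 ratios of -0.12 and -0.36 between knockdown and control cells at day 2 and day 0. The array annotation assigns the 2 probes to different Lamp2 transcripts. Whether each probe reads only that transcript was not tested. Of 7 preadipocyte and fibroblast markers, all were well above background on all arrays, as were 6 of 8 adipocyte, 2 of 4 brown adipocyte, 5 of 6 skeletal muscle, 1 of 5 hepatocyte, 4 of 4 macrophage and 2 of 4 endothelial markers. None of the brown adipocyte and hepatocyte markers was bright, and Prdm16 and Ttr among them were well above background on no array.

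Promoter windows from 250 bases before to 50 bases after the gene start were found in RefSeq's table for 8 of the 9 genes, on build GRCm38.p6. Cpt1b had no entry. The first 3 windows shown are the ones of the 8 that hold the nuclear receptor half-site AGGTCA. Acadm and Acadvl were the genes past 2-fold in the time courses, and Cpt1a had the lowest ratio of the 9 in control cells. Acadl was lower at day 2 than at day 0 in knockdown and in control cells. Its window held no half-site and is not shown. Whether the half-site bears on the ratios was not tested. In the first 3 windows, capitals mark the half-site, which reads TGACCT where it lies on the other strand. All are written 5′ to 3′ on the strand of the gene.
Acadm, chr3:153944594-153944893, minus strand: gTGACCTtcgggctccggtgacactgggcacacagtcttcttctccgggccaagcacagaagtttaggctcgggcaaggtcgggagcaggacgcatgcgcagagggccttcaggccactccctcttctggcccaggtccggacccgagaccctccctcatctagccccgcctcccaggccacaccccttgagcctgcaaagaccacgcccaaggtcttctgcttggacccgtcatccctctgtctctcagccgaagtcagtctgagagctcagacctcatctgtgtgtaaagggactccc
Acadvl, chr11:70015379-70015678, minus strand: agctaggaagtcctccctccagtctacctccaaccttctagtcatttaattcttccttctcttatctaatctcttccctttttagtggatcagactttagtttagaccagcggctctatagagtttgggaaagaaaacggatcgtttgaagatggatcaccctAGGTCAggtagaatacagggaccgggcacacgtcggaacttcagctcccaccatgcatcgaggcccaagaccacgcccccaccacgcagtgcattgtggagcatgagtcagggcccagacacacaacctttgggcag
Cpt1a, chr19:3323051-3323350, plus strand: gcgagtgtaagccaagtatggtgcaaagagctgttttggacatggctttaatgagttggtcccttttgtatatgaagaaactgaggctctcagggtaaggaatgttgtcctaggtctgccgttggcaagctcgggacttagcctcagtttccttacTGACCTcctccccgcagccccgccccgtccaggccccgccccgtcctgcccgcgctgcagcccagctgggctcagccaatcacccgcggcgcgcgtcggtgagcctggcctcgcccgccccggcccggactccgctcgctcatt

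The half-site began 249 bases before the start in Acadm, 87 bases before it in Acadvl and 94 bases before it in Cpt1a. It was in 3 of the 8 windows of these genes and in 16.3% of all 32851 windows of the table. The direct repeat of AGGTCA with 1 base between, the PPAR element, was in 0 of the 8 and in 0.0396% of all windows. The ERR element TCAAGGTCA, which contains the half-site, was in 0 of 8 and in 0.423%, and the C/EBP palindrome TTGCGCAA in 0 of 8 and in 0.183%. Both strands were searched. These matches describe letters in short windows, and their absence says only that the letters are not there.

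Hadha and Hadhb, which encode the alpha and beta subunits of the trifunctional protein, are neighbours that are read in opposite directions. Their windows are shown because 228 bases, in capitals, belong to both, written once on each strand.
Hadha, chr5:30154931-30155230, minus strand: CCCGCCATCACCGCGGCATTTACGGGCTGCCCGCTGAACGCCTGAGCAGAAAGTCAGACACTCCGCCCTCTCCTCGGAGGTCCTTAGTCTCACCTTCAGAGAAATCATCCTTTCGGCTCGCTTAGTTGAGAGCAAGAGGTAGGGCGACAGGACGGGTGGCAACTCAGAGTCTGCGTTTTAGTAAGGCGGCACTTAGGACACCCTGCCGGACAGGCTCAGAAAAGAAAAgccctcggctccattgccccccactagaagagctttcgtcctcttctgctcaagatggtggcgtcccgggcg
Hadhb, chr5:30155003-30155302, plus strand: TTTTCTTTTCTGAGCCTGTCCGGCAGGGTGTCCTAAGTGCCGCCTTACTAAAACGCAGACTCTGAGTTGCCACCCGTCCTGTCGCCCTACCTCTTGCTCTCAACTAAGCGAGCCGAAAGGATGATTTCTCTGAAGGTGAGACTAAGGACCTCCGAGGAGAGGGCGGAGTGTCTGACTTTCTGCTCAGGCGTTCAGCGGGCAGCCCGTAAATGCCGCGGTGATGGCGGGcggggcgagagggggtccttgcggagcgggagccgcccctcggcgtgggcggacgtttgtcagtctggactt

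Cpt1a encodes the liver-type carnitine palmitoyltransferase 1, the form of most tissues. Its main probe, A_51_P427674, is printed 10 times on each array. Its processed signal over these spots was 4804 to 5471 (median 5179) in knockdown and 3750 to 4357 (median 4171) in control cells at day 2, and 7346 to 8051 (median 7740) in knockdown and 7990 to 8770 (median 8580) in control cells at day 0. As levels, the spots averaged 2.23 ± 0.06 in knockdown and 1.74 ± 0.07 in control cells at day 2, and 2.22 ± 0.04 in knockdown and 2.43 ± 0.04 in control cells at day 0 (SD over 10 spots of 1 array, not over cultures). The control day 2 array stood below the other 3, and its spots did not overlap with theirs.

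**Figure D1:**
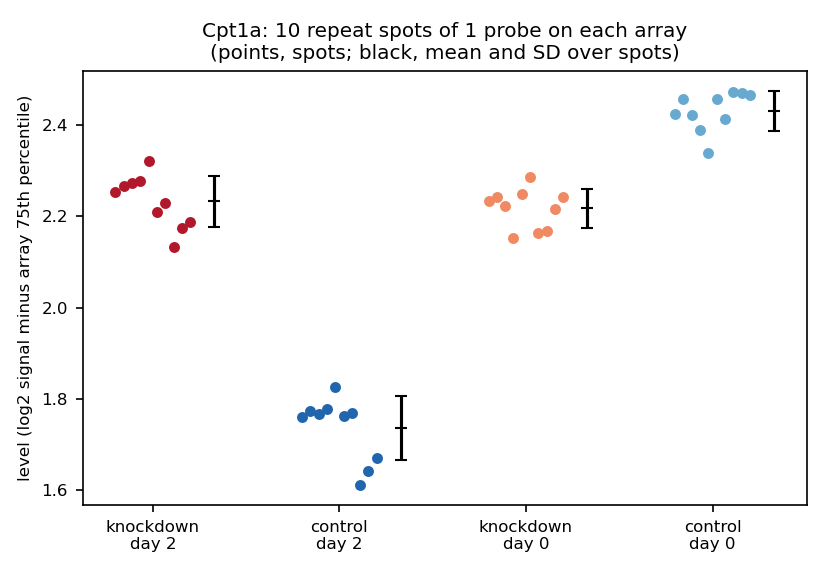
Level of Cpt1a (log2 signal minus the array's 75th percentile, y axis) at each of 10 repeat spots on the 4 arrays (x axis), with the mean and SD over spots in black. The spots of the control day 2 array, at 1.61 to 1.83, lie below those of the other arrays, at 2.13 to 2.47.

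At day 2, Cpt1a in knockdown cells was thus 1.41-fold above control cells, and at day 0 it was 1.16-fold below them. Against day 0, the day 2 level was 1.01-fold higher in knockdown cells and 1.62-fold lower in control cells, the lowest ratio of the 9 genes in that comparison. A dimmer second probe, A_55_P2057405, gave signals of 451 in knockdown and 487 in control cells at day 2, and of 698 and 946 in knockdown and control cells at day 0. It also had the control time course lower, by 1.51-fold, but at day 2 it differed between knockdown and control cells by only 1.04-fold. Its difference at day 0 was 1.42-fold lower in knockdown cells. The higher Cpt1a value of knockdown cells at day 2 was thus seen at the main probe and not at the second.

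Cpt1b encodes the muscle-type form of the same enzyme and had signals of 139 in knockdown and 182 in control cells at day 2, and of 139 and 214 in knockdown and control cells at day 0, at its brighter probe, A_55_P1956882. The knockdown to control log2 ratio was -0.22 at day 2 and -0.68 at day 0. The time course had log2 ratios of 0.59 in knockdown and 0.13 in control cells. At these signals the ratio depends on the processing: for knockdown against control at day 0 it was -1.37 after quantile normalization and -0.38 with normexp background correction, and in the control time course it was -0.49 after quantile normalization. A second probe, A_55_P2039210, read 72.4 and 125 in knockdown and control cells at day 2 and 103 and 118 in knockdown and control cells at day 0. Its knockdown to control log2 ratios were -0.62 at day 2 and -0.26 at day 0. Its time course had log2 ratios of 0.09 in knockdown and 0.44 in control cells. The lncRNA gene Gm44502 overlaps Cpt1b in the gene table, and which of them the probes read is uncertain.

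Cpt2 encodes the inner-membrane transferase. Its signal at the brighter probe, A_55_P2033650, was 10953 in knockdown and 15305 in control cells at day 2, and 14084 in knockdown and 13000 in control cells at day 0. The levels were 3.32 and 3.64 in knockdown and control cells at day 2 and 3.09 and 3.04 in knockdown and control cells at day 0. Both day 2 arrays were above both day 0 arrays, with log2 ratios of 0.23 in knockdown and 0.60 in control cells. Of the day 2 arrays the knockdown one was lower, by 1.25-fold, and of the day 0 arrays it was higher, by 1.04-fold. The second probe, A_55_P2074174, had the same direction in the time courses, with log2 ratios of 0.10 and 0.41 in knockdown and control cells, and at day 2, with -0.50, and the opposite one at day 0, with -0.19.

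The dehydrogenases for the 3 chain lengths did not share 1 pattern. Acadvl, whose product starts the oxidation of the longest chains at the inner membrane, had signals of 51910 in knockdown and 47506 in control cells at day 2, and of 38716 in knockdown and 38900 in control cells at day 0 (probe A_55_P1991906). The levels were 5.57 and 5.27 in knockdown and control cells at day 2, and 4.55 and 4.62 in knockdown and control cells at day 0. Both day 2 arrays were above both day 0 arrays. Knockdown exceeded control by 1.22-fold at day 2, while at day 0 it was 1.05-fold lower. The 2.02-fold difference of the knockdown time course lies at the threshold: relative to the median of the bright genes its log2 ratio was 0.93, and over the alternative settings it ran from 0.80 to 1.02.

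Acadl, for long chains, had signals of 3750 in knockdown and 5048 in control cells at day 2, and of 7433 in knockdown and 6980 in control cells at day 0 (probe A_51_P149455). As levels these were 1.78 and 2.04 in knockdown and control cells at day 2, and 2.17 and 2.14 in knockdown and control cells at day 0. Here the order was the reverse of that of Acadvl, with both day 2 arrays below both day 0 arrays. Knockdown cells had 1.20-fold less Acadl signal than control cells at day 2 and 1.02-fold more at day 0, relative to the 75th percentile. Its day 2 level was 1.31-fold lower than at day 0 in knockdown cells and 1.07-fold lower in control cells. The control difference was within the software error, and the knockdown one was within 2 software errors.

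Acadm encodes the enzyme for medium chains, whose inherited deficiency is a common disorder of fatty acid oxidation in humans. Its signal was 39667 in knockdown and 54092 in control cells at day 2, and 28078 in knockdown and 18900 in control cells at day 0 (probe A_51_P319879). Levels were 5.18 and 5.46 in knockdown and control cells at day 2, and 4.09 and 3.58 in knockdown and control cells at day 0. The control arrays were the extremes of the 4 at both ends, with the knockdown arrays between them. Knockdown was below control by 1.22-fold at day 2 and above it by 1.42-fold at day 0. The log2 ratio of the time course was 1.09 in knockdown and 1.88 in control cells, and over the alternative settings it ran from 0.89 to 1.14 in knockdown and from 1.78 to 1.95 in control cells. Among the bright genes, 98.3% had a lower ratio than Acadm in the control time course.

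**Figure D2:**
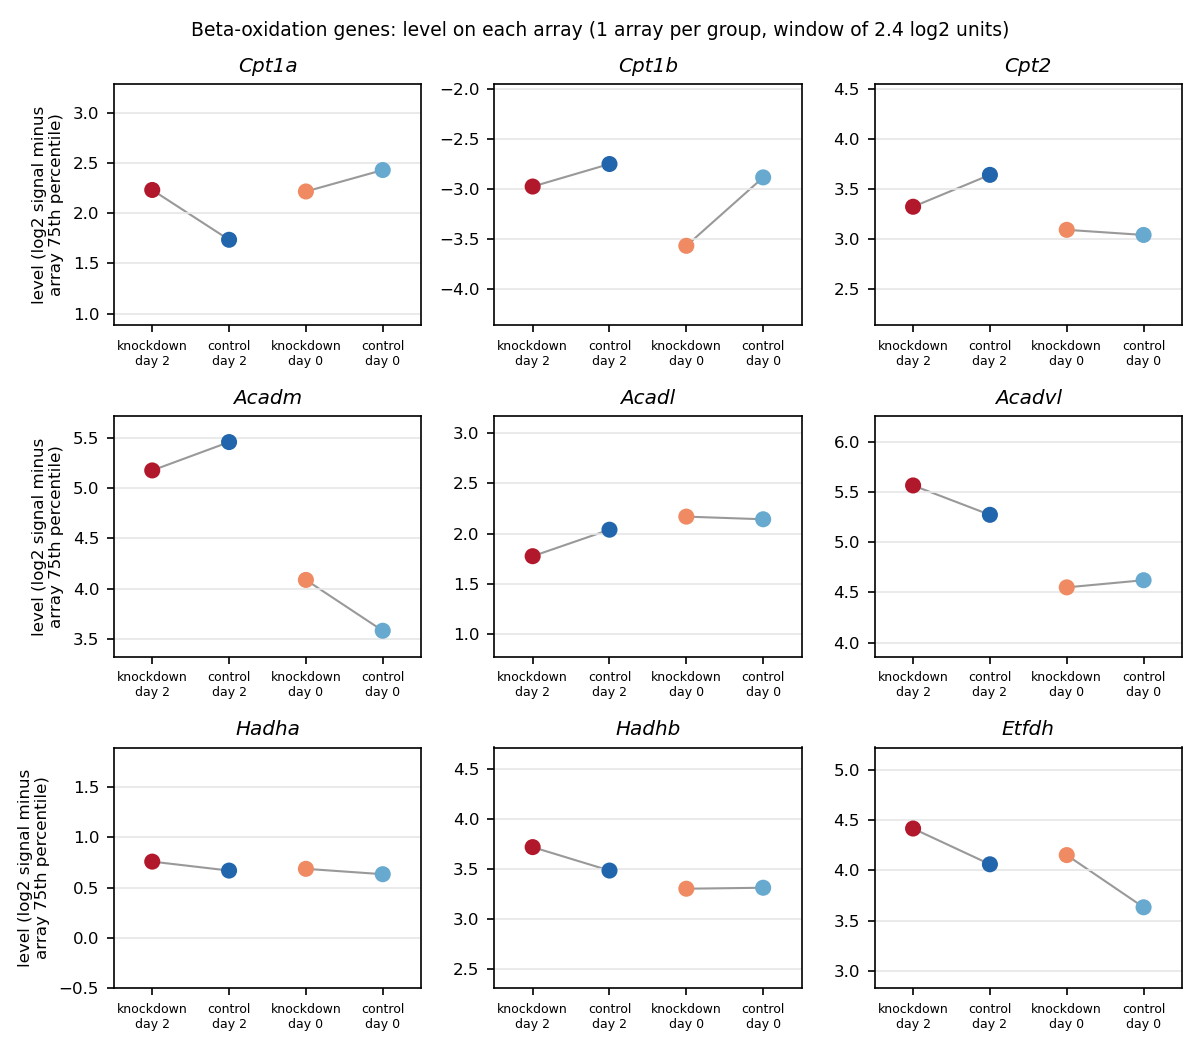
Level of each of the 9 genes (y axis, log2 signal minus the array's 75th percentile) on the 4 arrays (x axis), 1 point per array at the probe that stands for the gene, with lines joining knockdown and control of the same day. Each panel spans the same height, so slopes can be compared: Acadm moves over 1.88 log2 units and Hadha over 0.13.

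Of the trifunctional protein genes, Hadha stayed close to its own level, and Hadhb moved by up to 1.33-fold. Hadha had signals of 1853 in knockdown and 1953 in control cells at day 2, and of 2659 in knockdown and 2450 in control cells at day 0 (probe A_52_P193029), with levels of 0.76 and 0.67 at day 2 and of 0.69 and 0.63 at day 0 in knockdown and control cells. Its range of 1.09-fold over the arrays was the smallest of the 9 genes and within the error of a single ratio. Hadhb read 14414 in knockdown and 13741 in control cells at day 2, and 16307 in knockdown and 15700 in control cells at day 0 (probe A_55_P2073294). Its levels of 3.72 and 3.48 in knockdown and control cells at day 2 were above those of 3.30 and 3.31 in knockdown and control cells at day 0. The largest Hadhb ratio was 1.33-fold, for the time course in knockdown cells, where Hadha was at 1.05-fold. That Hadhb ratio was past 2 software errors, and over the alternative settings its log2 ratio ran from 0.26 to 0.46. In the main setting the 2 subunit genes thus stayed within 1.33-fold of their own level in every comparison.

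Etfdh encodes the oxidoreductase that passes electrons from the flavoprotein to ubiquinone. Its signals were 23413 in knockdown and 20501 in control cells at day 2, and 29389 in knockdown and 19600 in control cells at day 0 (probe A_55_P1973723). On the level scale these were 4.42 and 4.06 in knockdown and control cells at day 2, and 4.15 and 3.63 in knockdown and control cells at day 0. Knockdown cells had more Etfdh on both days, by 1.28-fold at day 2 and 1.43-fold at day 0. The day 2 difference was within 2 software errors. Over the alternative settings its log2 ratio ran from 0.29 to 0.36. Both arrays of day 2 were above their day 0 counterparts, with log2 ratios of 0.26 in knockdown and 0.43 in control cells. The gene Ppid overlaps Etfdh in the gene table, and whether the probe also reads it was not tested.

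**Figure D3:**
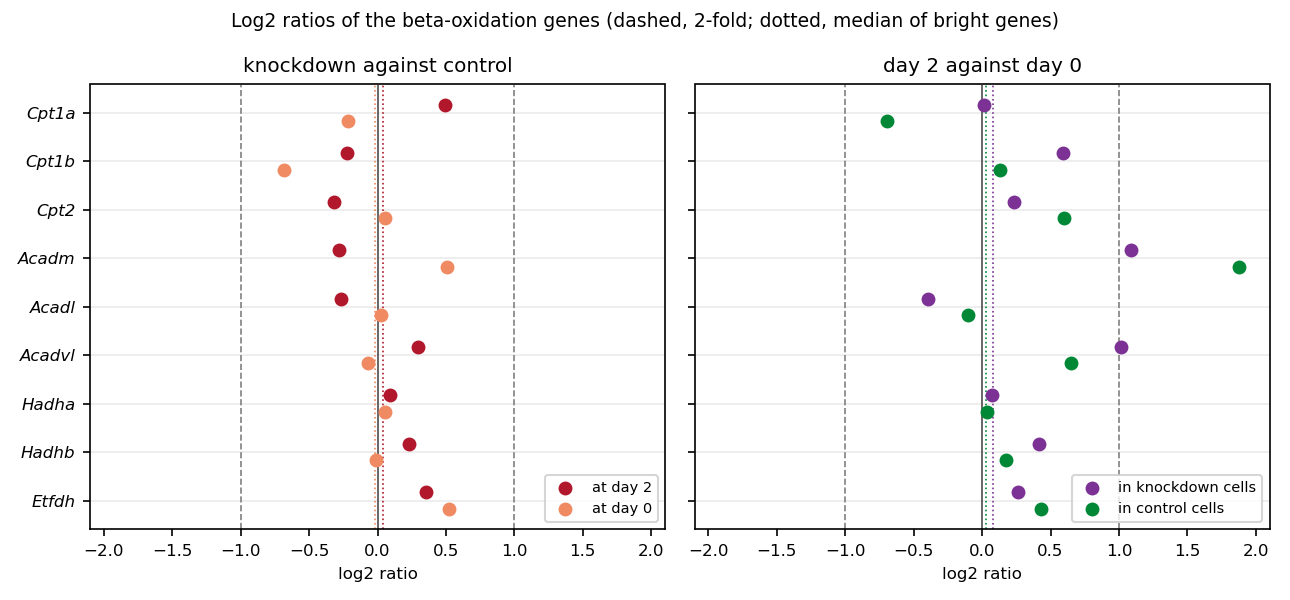
Log2 ratios of the 9 genes (x axis) for knockdown against control at day 2 and day 0 (left) and for day 2 against day 0 in knockdown and control cells (right), 1 point per gene and comparison. Dashed lines mark 2-fold and dotted lines the median of bright genes, and only Acadm in both time courses and Acadvl in knockdown cells lie past a dashed line.

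Across the list, knockdown against control at day 2 gave 0 of 9 genes past 2-fold, where 7.02% of all 18561 genes compared and 6.64% of bright genes were past it. The log2 ratios ran from -0.32 (Cpt2) to 0.50 (Cpt1a), with a median of 0.09 against 0.04 over bright genes. Genes of the same route stood on both sides of 0, with 5 above and 4 below, and the same 5 were above the median of bright genes. Only Cpt1a differed by more than 2 software errors. At day 0, also 0 of 9 passed 2-fold, where 22.6% of all 19270 genes compared and 8.65% of bright genes did, and the ratios ran from -0.68 (Cpt1b) to 0.52 (Etfdh) with a median of 0.03. Cpt1b, Acadm and Etfdh differed by more than 2 software errors there. The median over bright genes was -0.02.

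For day 2 against day 0 in knockdown cells, 2 of 9 genes were at least 2-fold higher and none was lower, where 14.1% of all 19198 genes compared passed 2-fold, 5% higher and 9.09% lower, and 15.4% of bright genes did. The median log2 ratio was 0.26, against 0.08 over bright genes. Above 0 were 8 of the 9 ratios, with Acadl below it, but only 6 were above the median of bright genes. Of the ratios above 0, Cpt1a at 0.01 was within the error and was -0.08 after cyclic loess. Cpt1b, Acadm, Acadvl and Hadhb differed by more than 2 software errors. In control cells, 1 of 9 was at least 2-fold higher and none was lower, where 28.2% of all 18657 genes compared passed 2-fold, 20.2% higher and 8.08% lower, and 15.3% of bright genes did. The median was 0.17, against 0.03 over bright genes, and 7 of 9 ratios were above 0, Cpt1a and Acadl being below it. The same 7 were above the median of bright genes. Cpt1a, Cpt2, Acadm, Acadvl and Etfdh differed by more than 2 software errors there. At a size of 1.5-fold the count of the 9 genes was 0 for knockdown against control at day 2 (17.3% of bright genes) and 1, Cpt1b, at day 0 (22.4% of bright genes). It was 3 for the time course in knockdown cells (32.5% of bright genes), namely Acadm, Acadvl and Cpt1b, and 4 in control cells (32.2% of bright genes), namely Acadm, Acadvl, Cpt2 and, lower, Cpt1a. The 4 comparisons are built from the same 4 arrays and are not independent of each other. Of 8 adipocyte markers, 3 were at least 2-fold higher at day 2 than at day 0 in knockdown cells and 7 in control cells. Adipoq, Plin1, Cd36 and Lipe among the 8 are dim genes, and the Adipoq and Cd36 values in control cells are bounds. The control time course also crosses slides. At day 2, 4 of the 8 (Pparg, Cebpa, Plin1 and Adipoq) had at least 2-fold less in knockdown cells and Fabp4 had more, with a median log2 ratio of -1.02. Their summed level, 88.9 in knockdown and 78.7 in control cells at day 2 and 44.5 and 60.5 in knockdown and control cells at day 0, in units of the array's 75th percentile, rests mostly on Fabp4 and Lpl. The 4 macrophage markers on the array summed to 37.1 and 26.7 at day 2 and to 30.2 and 16.4 at day 0, in knockdown and control cells, mostly from Itgam. Their median log2 ratio of knockdown to control was -0.16 at day 2, where Itgam was above 0 and the other 3 below. At day 0 it was 0.82, with all 4 above 0. Ptprc and Adgre1 are dim genes. For the 6 skeletal muscle markers, 3 of them bright, this median was 0.19 at day 2 and 1.93 at day 0. At day 0, 4 of the 6 were at least 2-fold higher, Ckm as a bound, and 1 was lower. Of all genes compared, 18.4% were higher and 4.17% lower at day 0, a comparison that crosses slides. The part of these shifts in the ratios was not tested.

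The knockdown to control log2 ratio at day 2 minus that at day 0 shows where the time courses parted. It was positive for Cpt1a, at 0.71, and negative for Acadm, at -0.79, and lay between -0.37 (Cpt2) and 0.46 (Cpt1b) for the other genes. The second Cpt1b probe gave -0.36, of the opposite sign, and the median over both Cpt1b probes gave 0.05. For Hadha the difference was 0.04. None of the 9 passed 2-fold, and 2 passed 1.5-fold (22.4% of bright genes), where at 2-fold 19.9% of all 15465 genes well above background on all arrays and 9.31% of bright genes did. The median over the 9 genes was 0.04, against 0.08 over bright genes. Of bright genes, 94.1% had a lower value than Cpt1a and 9.41% a lower value than Acadm. After quantile normalization the value of the dim gene Cpt1b was 1.19, past 2-fold, while Cpt1a had 0.60 and Acadm -0.89.

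The genes with the pattern most like Acadm over the 4 arrays, by the root mean square distance of the levels after each gene's own mean was subtracted, were Ecm1 (0.052), Rab9b (0.072) and 4930506C21Rik (0.086), out of 15464 genes. For Acadvl they were Mtf1 (0.014), Rhot1 (0.017) and Exoc8 (0.028). These distances are in log2 units and rest on 4 arrays only. The other 7 genes had ranges under 2-fold and were not matched.

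A further 24 related genes gave no gene past 2-fold in any of the 4 comparisons, where 7.02% to 28.2% of all genes compared passed it. The 24 were listed under the carnitine shuttle, the other acyl-CoA dehydrogenases, the later steps, the enzymes for unsaturated chains and the electron transfer flavoprotein. Not all of them act in mitochondrial fatty acid oxidation, so their medians are not those of the route. In at least 1 alternative setting 1 carnitine shuttle gene passed 2-fold at day 0, and 1 did in the control time course. Their log2 ratios of knockdown to control had a median of -0.19 at day 2, with 16 below 0 and 8 above, and of -0.07 at day 0. Over bright genes these medians were 0.04 and -0.02. For day 2 against day 0 the median was -0.03 in knockdown and 0.11 in control cells. The farthest from 0 at day 2 was Acaa2, a mitochondrial thiolase, with signals of 29548 in knockdown and 60819 in control cells, 1.84-fold lower in knockdown cells, followed by Ech1, a dienoyl-CoA isomerase, at 1.71-fold lower. Slc25a20, the carnitine-acylcarnitine carrier between Cpt1 and Cpt2, had log2 ratios of -0.52 at day 2 and -0.37 at day 0. Etfa and Etfb, the flavoprotein subunits from which the Etfdh product takes electrons, had log2 ratios of 0.07 and -0.34 at day 2 and of 0.05 and -0.24 at day 0. The higher values of Etfdh in knockdown cells were thus not shared by both of its partners.

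**Figure D4:**
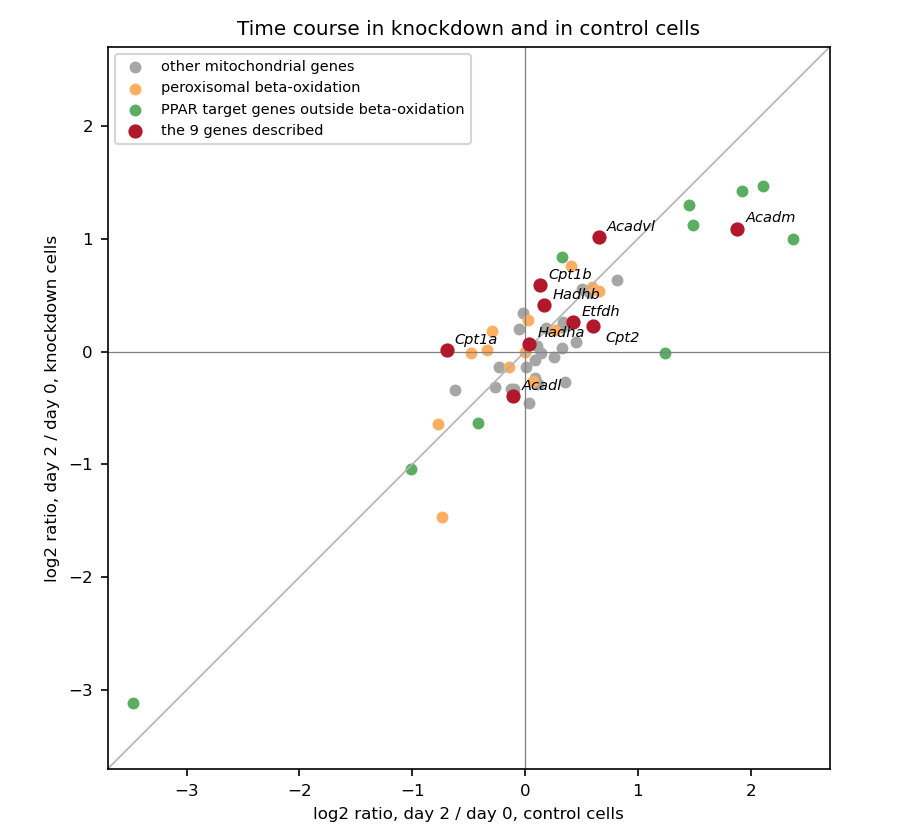
Log2 ratio of day 2 to day 0 in knockdown cells (y axis) against that in control cells (x axis), with the line of equal ratios in grey. Points are the 9 genes (red, named), the 24 related genes (labelled other mitochondrial genes), peroxisomal genes and PPAR target genes. The unnamed points of Cd36, Abcd2 and Ehhadh are bounds on at least 1 axis. Acadm lies right of the line, at 1.09 in knockdown and 1.88 in control cells, near several PPAR targets, while most enzymes stay within 2-fold.

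Peroxisomes carry out a beta-oxidation of their own on very long and branched chains. Of the 13 peroxisomal genes described here, 1 was past 2-fold at day 2, the dim gene Acox2, an oxidase of branched chains, with 2.33-fold less in knockdown cells, and none was at day 0. Acox2 was also 2.76-fold lower at day 2 than at day 0 in knockdown cells. With normexp its log2 ratios were within 2-fold, at -0.76 and -0.84. In control cells no peroxisomal gene passed 2-fold in the time course. Of all genes compared, 7.02% passed 2-fold at day 2 and 22.6% at day 0, and 14.1% and 28.2% in the knockdown and control time courses.

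Some regulators of the route passed 2-fold between knockdown and control cells. Pparg, the nuclear receptor that drives fat cell formation, had signals of 3236 in knockdown and 9719 in control cells at day 2, and of 5282 in knockdown and 4998 in control cells at day 0, a difference of 2.68-fold lower in knockdown cells at day 2, with 1.01-fold at day 0. Ppargc1a, which encodes PGC-1alpha, had signals of 4036 in knockdown and 379 in control cells at day 2, and of 1157 in knockdown and 709 in control cells at day 0. At day 2 the knockdown cells had 11.9-fold more, and its second probe had a log2 ratio of 4.27. Ppara, the receptor best known for oxidation genes in liver, was 2.01-fold higher in knockdown cells at day 0, which passed 2-fold in 5 of 9 alternatives, with a log2 ratio of -0.04 at day 2. The receptor genes Ppard and Esrra had log2 ratios of 0.40 and 0.03 at day 2. Of the 9 regulators listed, 1 was higher and 1 lower by 2-fold at day 2, and the list had a median of 0.03. At day 0, Ppara was the only one past 2-fold. Of all genes compared, 7.02% passed 2-fold at day 2 and 22.6% at day 0.

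Of 10 PPAR target genes outside beta-oxidation, 4 were at least 2-fold higher and 2 lower at day 2 than at day 0 in knockdown cells. In control cells 6 were higher and 2 lower, where the value of Cd36 is a bound. Of all genes compared, 5% were higher and 9.09% lower in the knockdown time course, and 20.2% and 8.08% in the control one. Pdk4, a kinase that shuts off pyruvate oxidation, was 2.18-fold higher in knockdown and 2.80-fold higher in control cells. Angptl4, an inhibitor of lipoprotein lipase, was 2.00-fold higher in knockdown cells, just under the threshold, and 5.20-fold higher in control cells. The list's median log2 ratio was 0.92 in knockdown and 1.35 in control cells, though in control cells it was as low as 0.35 in 1 alternative setting. For knockdown against control at day 2, 1 of the 10 was higher and 1 lower, where 2.89% of all genes compared were higher and 4.13% lower. The 2 from the list are Acot1 and Acot2, thioesterase genes that are near-identical copies, at 2.85-fold higher and 2.80-fold lower. Which copy each probe reads is uncertain. With normexp the log2 ratio of Acot2 was -0.93, within 2-fold. At day 0, 3 of the 10 were higher and 1 lower, with a median of 0.31, where 18.4% of all genes compared were higher and 4.17% lower. Angptl4 (2.07-fold), Acot1 (3.31-fold) and the dim gene Fabp3 (2.24-fold) were higher and Acot2 (3.58-fold) was lower. Fabp3 passed 2-fold in 6 of 9 alternatives and had a log2 ratio of -0.28 after cyclic loess.

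Of the 6 genes described here of ketone body metabolism and malonyl-CoA, none passed 2-fold between knockdown and control cells at either day at the probe that stands for the gene. The nearest was the dim gene Bdh1, a ketone body dehydrogenase, at 1.94-fold higher in knockdown cells at day 0. Its other 2 probes, each well above background on 3 of the 4 arrays, read 88.0 and 91.3 in knockdown cells and 27.9 and 16.1 in control cells there. In at least 1 alternative setting 1 gene of the list passed 2-fold at day 0. Over all genes compared the share past 2-fold was 7.02% at day 2 and 22.6% at day 0. Acaca and Acacb, the carboxylases that make the malonyl-CoA which inhibits Cpt1, had log2 ratios of -0.04 and 0.63 at day 2, and Mlycd, the decarboxylase that removes it, 0.29.

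**Figure D5:**
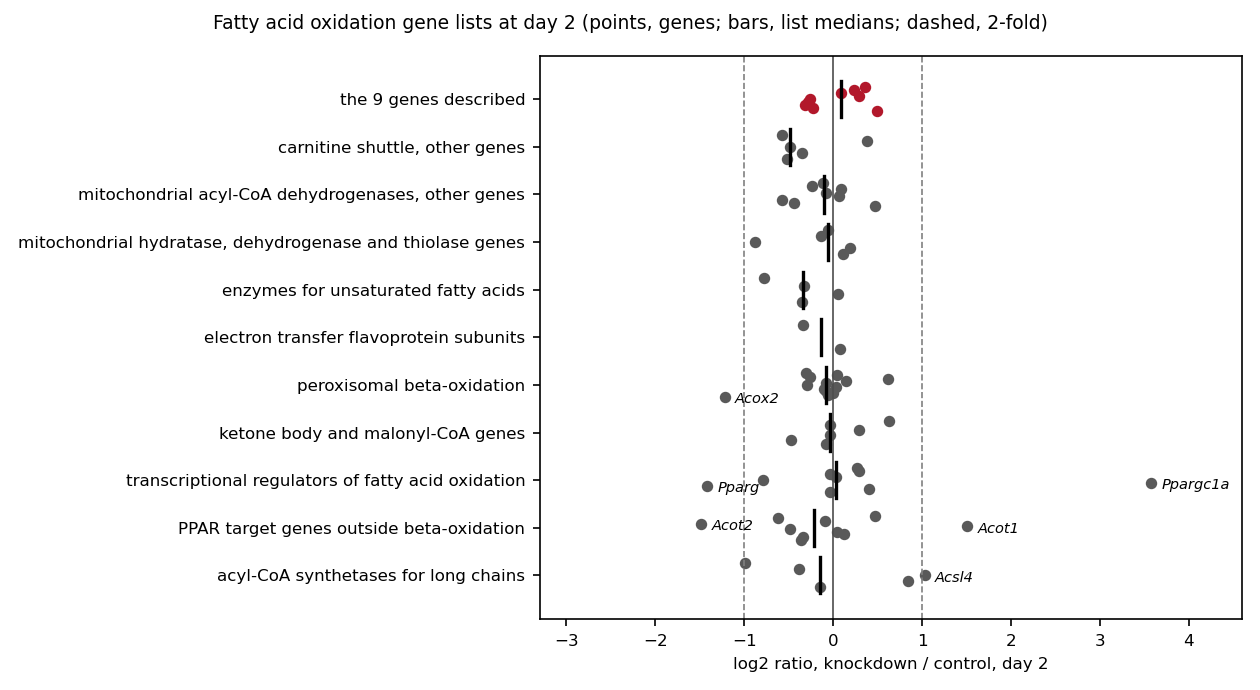
Log2 ratio of knockdown to control at day 2 (x axis) for each gene of the 9 described and of 10 other lists of fatty acid oxidation (y axis), with list medians as bars and 2-fold as dashed lines. The 9 genes lie between -0.32 and 0.50, and the genes named in the plot are those past 2-fold.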

How the data were processed

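Total RNA from 4 cultures was hybridised to Agilent arrays of design 028005 with Cy3, 1 array per group. Per the file headers, Feature Extraction 10.7.3.1 subtracted a spatial background and detrended the signals, except on the knockdown day 0 array. The deposited values are linear intensity values without normalization across arrays. From these, control and outlier spots were left out, log2 signals were scaled to the 75th percentile of each array, repeat spots were averaged and the brightest probe stood for a gene. Accessions were matched to RefSeq's gene table of GRCm38.p6, used for names and neighbours. By this, 27656 probes were named, and 20956 genes remained. Promoter sequences are RefSeq's. Comparisons took the genes that exceeded background well on 1 or both of the arrays, with the dim side set to the lowest such level of its array, which gives a bound. The 9 genes, 10 other gene lists and 7 marker lists were chosen with earlier results of these data known. Named were all 9 genes, listed genes past 2-fold or of a stated role, and the 3 genes most like each of the 9 with a range of at least 2-fold. Alternatives were normexp (offset 50, on median signals), quantile and cyclic loess normalization (3 iterations), another scaling percentile set, the median of probes, outlier spots kept, 2 measured sides, no detrending, a 1.5-fold size and, chosen after seeing the data, centring on bright genes. Some listed genes are not reported here. The number of arrays limits the precision. Python 3.11.15, numpy 2.4.6, pandas 2.3.3, matplotlib 3.10.9, R 4.3.3 and limma 3.58.1 were used.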

Additional observations from a re-analysis of the deposited data

Results flagged for a closer look

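For 2 of the 9 genes the knockdown cells stood on opposite sides of the control cells at day 2 and at day 0, each time by more than a pair of repeat-spot SDs (a log2 ratio of 0.15). Cpt1a had a knockdown to control log2 ratio of 0.50 at day 2 and of -0.21 at day 0, a difference of 0.71. Acadm had -0.28 at day 2 and 0.51 at day 0, a difference of -0.79. The repeat-spot SD is a spread within arrays, taken from probes printed 10 times, while the Acadm probe has 1 spot. Cpt1a at day 0 and Acadm at day 2 were within 2 software errors. Over the alternative settings the difference ran from 0.60 to 0.72 for Cpt1a and from -0.90 to -0.66 for Acadm. Both rest on the control day 0 array, which was on another slide, and on the knockdown day 0 array, which was not detrended. With 1 array per group these differences were not tested. The second Cpt1a probe gave 0.06 and -0.50, a difference of 0.56, and its day 2 value was under 0.15.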

How the results depend on the processing

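No paired analysis was possible because each group has 1 array. Between knockdown and control cells, the count of the 9 genes past 2-fold at day 2 was 0 under all 10 alternatives. At day 0 it was 1 after quantile normalization, after cyclic loess and at a 1.5-fold size, the gene being Cpt1b each time, and 0 in the other 7. For day 2 against day 0 in knockdown cells it was 2, but 1 with normexp, with the percentile of probes well above background, without detrending and with centring on bright genes, and 0 after quantile normalization and cyclic loess. In control cells it was 1 in all alternatives but the 1.5-fold size, which gave 4. The median log2 ratio of the 9 genes in the knockdown time course was 0.26, and 0.13 and 0.084 after quantile normalization and cyclic loess. In the control time course it was 0.17, and 0.31 with normexp, 0.29 with the median of all probes and 0.35 without detrending. The median of the day 2 minus day 0 difference in knockdown ratio was 0.036, and -0.063 with centring on bright genes. The causes were not tested. Of 746 values of single genes under the alternatives, 574 moved by less than the repeat-spot SD of 0.073 and 2 reversed: the dim gene Fabp3 had log2 ratios of -0.28 for knockdown against control at day 0 and -0.23 for the control time course after cyclic loess. Signals near background limit Cpt1b most. With 1 array per group, no alternative measures the spread between cultures, and leaving out the control day 0 array leaves no control value at day 0.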

Other observations

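Among long-chain acyl-CoA synthetase genes, which activate fatty acids before Cpt1, Acsl4 had 2.04-fold more signal in knockdown cells at day 2, past 2-fold in 4 of 9 alternatives, and 1.44-fold more at day 0. Acsl1, a main form of fat cells, had log2 ratios of -0.15 at day 2 and 0.18 at day 0, and was higher at day 2 than at day 0 by log2 ratios of 0.97 in knockdown and 1.30 in control cells. Acot2 was 8.67-fold lower at day 2 than at day 0 in knockdown cells and 11.1-fold lower in control cells, with log2 ratios from -3.21 to -2.18 in knockdown and from -4.05 to -3.02 in control cells over the alternatives. The coactivator gene Ppargc1b, a dim relative of Ppargc1a, was lower at day 2 than at day 0 by log2 ratios of -2.15 in knockdown and -1.06 in control cells. Over the alternatives these ran from -2.26 to -0.80 in knockdown and from -2.42 to -0.54 in control cells, past 2-fold in 8 of 9 and 7 of 9 of them. These values carry no replicate check.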
